A study of Mus musculus with 3 samples.

Results

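Sst interneurons are inhibitory neurons of the cortex that release GABA together with the neuropeptide somatostatin. They arise in the medial ganglionic eminence of the embryo under the transcription factor *Lhx6*, and many of them send axons to the outer dendrites of pyramidal neurons. A rare type that also carries *Nos1*, *Chodl* and *Npy* is known for axons that run over long distances. Here they were examined in single-nucleus RNA sequencing (snRNA-Seq) of mouse prefrontal cortex (PFC), in which mRNA molecules are counted as unique molecular identifiers (UMIs) in each nucleus. A nucleus was called an Sst nucleus when it had at least 2 UMIs of *Sst*, at least 1 UMI over the GABA genes *Gad1*, *Gad2* and *Slc32a1*, at most 1 UMI of the glutamate transporter *Slc17a7*, and none of *Vip* or *Pvalb*. This rule found 568 Sst nuclei among 43464 nuclei that had at least 200 genes and under 10% mitochondrial counts.

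Each of 3 genotypes gave 1 library. C57BL/6J is the wild-type inbred strain, and its library pooled the PFC of 5 mice. The *Nav1* KO library pooled 4 mice on the C57BL/6J background, in which genome editing had removed a stretch of the first exon of *Nav1*, a neuron navigator gene that acts on the cytoskeleton. The third library was from BTBR T+ Itpr3tf/J (BTBR), an inbred strain of its own, and the sources used here give no number of mice for it and describe its nuclei by the same protocol text as the other libraries. All mice were males of 6 to 8 weeks. No treatment is given in the labels. Nuclei were sorted with the neuronal antigen NeuN and positive and negative nuclei were then combined, so the shares of nuclei below also reflect the sort. The mice of a genotype shared 1 library, so no test between genotypes was possible, and each interval printed for a library is exact, at the 95% level, and reflects counting alone.

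The C57BL/6J library held 191 Sst nuclei with 580227 counts in all and a median of 2677 UMIs per nucleus. The *Nav1* KO library held 155 with 526591 counts and a median of 3192 UMIs. The BTBR library held 222 with 727115 counts and a median of 2690.5 UMIs. Between 61 and 71 cell barcodes were shared by each pair of libraries, and no barcode was an Sst nucleus in both libraries of a pair.

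Results below turn on 3 peptide genes of these nuclei, so the 250 bases before their start sites are shown. The sequences are those of RefSeq on GRCm38.p6, 5′ to 3′ on the strand of the gene, and the capitals mark TGACGTCA, the cAMP response element, or its short form, TGACG or CGTCA. They lie at chr16:23890845-23891094 (minus strand) for *Sst*, chr4:149126764-149127013 (minus strand) for *Cort* and chr6:49822460-49822709 (plus strand) for *Npy*.
Sst: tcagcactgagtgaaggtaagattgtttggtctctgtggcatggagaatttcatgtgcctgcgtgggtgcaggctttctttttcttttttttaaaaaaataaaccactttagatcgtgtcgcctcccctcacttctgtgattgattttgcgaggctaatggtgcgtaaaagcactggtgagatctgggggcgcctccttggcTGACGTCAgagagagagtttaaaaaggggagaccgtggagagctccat
Cort: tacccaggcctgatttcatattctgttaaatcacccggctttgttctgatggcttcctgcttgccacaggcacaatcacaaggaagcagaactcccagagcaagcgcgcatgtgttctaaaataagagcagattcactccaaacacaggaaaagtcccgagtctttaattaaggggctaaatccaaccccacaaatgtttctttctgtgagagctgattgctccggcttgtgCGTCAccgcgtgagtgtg
Npy: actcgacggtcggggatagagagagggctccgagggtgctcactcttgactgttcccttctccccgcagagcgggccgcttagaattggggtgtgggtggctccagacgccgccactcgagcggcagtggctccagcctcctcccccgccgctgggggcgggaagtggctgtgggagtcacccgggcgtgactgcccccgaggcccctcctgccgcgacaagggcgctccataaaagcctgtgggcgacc
The full element begins 48 bases before the *Sst* start site and was found in 1.55% of all 32851 promoter windows of this length, searched on both strands. The short form, which the full element contains, was found in 17.8% of the windows. It begins 18 bases before the *Cort* start site, and neither is in the *Npy* window. A match of letters is a description of the sequence and not a measured binding site.

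Sst nuclei were 1.31% of the kept nuclei in C57BL/6J (1.13 to 1.5), 1.10% in the *Nav1* KO library (0.937 to 1.29) and 1.5% in BTBR (1.31 to 1.71). The *Nav1* KO share was 0.845 times that of C57BL/6J (0.679 to 1.05), and the BTBR share was 1.15 times it (0.944 to 1.40). Both intervals include 1. They did not where 1 *Sst* UMI was enough, with ratios of 0.792 (0.670 to 0.935) and 1.20 (1.04 to 1.40), nor with that rule after thinning to 1000 UMIs, with 0.770 (0.608 to 0.974) and 1.33 (1.08 to 1.63). Counted instead among GABA nuclei, those with at least 2 UMIs over the 3 GABA genes and at most 1 of *Slc17a7*, the shares were 13.8% in C57BL/6J, 9.81% in the *Nav1* KO library and 12.1% in BTBR. The ratio was then 0.710 (0.543 to 0.928) for *Nav1* KO and 0.873 (0.685 to 1.12) for BTBR. GABA nuclei themselves numbered 861, 1121 and 1334 in the same order, so the denominator was larger in both libraries than in C57BL/6J.

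The rule fixes at least 2 *Sst* UMIs, and most members had many more. The median was 11 *Sst* UMIs per nucleus in C57BL/6J, 11 in the *Nav1* KO library and 9 in BTBR, with highest values of 200, 148 and 102. Nuclei with 10 or more made up 52.4%, 54.8% and 49.1% of the members in the same order. The summed *Sst* level, in CPM (the count scaled to the summed counts of these nuclei), was 7545 in C57BL/6J, 6100 in the *Nav1* KO library and 5006 in BTBR. These values chose the members and are given as a description.

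**Figure D1:**
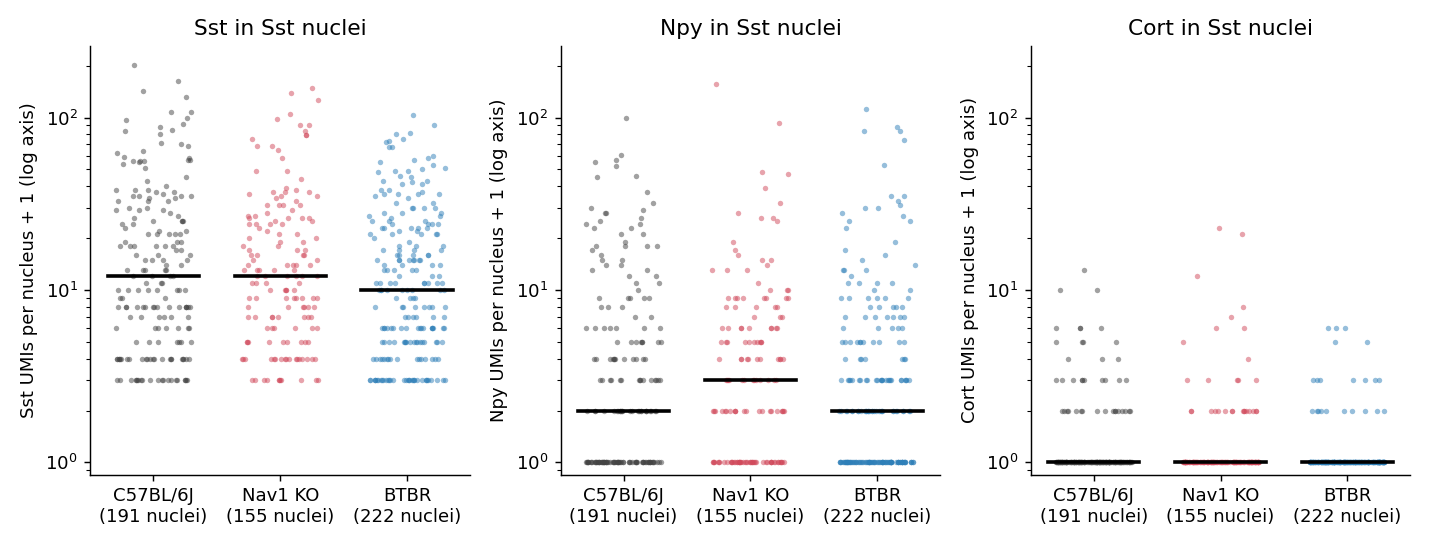
UMIs per Sst nucleus, plus 1, on log axes for *Sst*, *Npy* and *Cort*, with 1 point per nucleus (191 in C57BL/6J, 155 in the *Nav1* KO library and 222 in BTBR), spread sideways at random, and a black bar at the median. *Sst* spans from the threshold of 2 UMIs to 200, and most nuclei of every library had no *Cort* UMI.

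The members did not hold all of the *Sst* mRNA of the libraries. They carried 54.6% of the *Sst* counts of C57BL/6J, 49.4% of those of *Nav1* KO and 44.0% of those of BTBR. Of 1370 kept nuclei with at least 2 *Sst* UMIs, 391 had no UMI of a GABA gene, 512 had more than 1 *Slc17a7* UMI, 87 had *Vip* and 24 had *Pvalb*, and a nucleus could fail on several counts. Free RNA puts single UMIs into nuclei that do not transcribe a gene, so a class that should lack *Sst* was set beside these. Excitatory nuclei, those with at least 3 *Slc17a7* UMIs and no GABA gene, had an *Sst* UMI in 2.51% of nuclei in C57BL/6J, 1.64% in the *Nav1* KO library and 2.55% in BTBR once each nucleus was thinned to 1000 UMIs. Their median depth before thinning was 3397, 4208 and 3545 UMIs. Astrocyte nuclei, with at least 3 *Slc1a2* and 2 *Slc1a3* UMIs and none of the GABA genes or *Slc17a7*, had one in 6.71%, 2.22% and 2.91% at this depth (149, 316 and 206 nuclei), and oligodendrocyte nuclei, chosen likewise by their own markers, in 4.17%, 3.51% and 8.11% (48, 57 and 74 nuclei). At least 2 *Sst* UMIs were then found in 2.01% of astrocyte nuclei of C57BL/6J. Before thinning, where the rule applies, 0.727%, 0.563% and 1.15% of excitatory nuclei had at least 2 in C57BL/6J, *Nav1* KO and BTBR. In the same order it was 2.21%, 0.602% and 0% of astrocyte nuclei and 0%, 1.43% and 1.85% of oligodendrocyte nuclei. At 1000 UMIs 90.2%, 89.5% and 89.9% of Sst nuclei had an *Sst* UMI, which the rule fixes in large part.

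Genes that the rule did not use set Sst nuclei apart from Vip and excitatory nuclei. *Lhx6* stood at 60.3 CPM in C57BL/6J (42.0 to 83.9), 60.8 in the *Nav1* KO library (41.6 to 85.8) and 74.3 in BTBR (55.8 to 96.9). In Vip nuclei, chosen by the same rule with *Vip* in place of *Sst*, *Lhx6* was at 0 counts in C57BL/6J and *Nav1* KO and at 11 CPM in BTBR, and in excitatory nuclei it was below 1 CPM in every library. *Lhx6* is sparse at this depth, with a UMI in 30 of 191, 24 of 155 and 44 of 222 members. A UMI of any of 5 genes of the lineage or subclass, *Lhx6*, *Sox6*, *Satb1*, *Grin3a* and *Nxph1*, was found at 1000 UMIs in 65.2% of Sst nuclei of C57BL/6J, 70.6% of *Nav1* KO and 65.6% of BTBR. The share was 4.00%, 20.8% and 13.4% in Vip nuclei and 9.78%, 7.85% and 8.99% in excitatory nuclei. These 5 were picked from lists of 7 and 15 genes, and not every other member sets the classes apart. In the test against Vip nuclei described below, *Maf* and *Elfn1* did not pass, and *Kit* and *Synpr* were lower in Sst nuclei. Against Pvalb nuclei, in the test described below, *Sox6*, *Satb1* and *Nxph1* did not pass and *Grin3a* did (edgeR adjusted p = 0.00016).

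The nuclei at the edge of the rule resembled this picture less. Over the 3 libraries, the 426 nuclei just outside it, with 1 *Sst* UMI, had *Lhx6* at 17.2 CPM and *Grin3a*, an NMDA receptor subunit typical of Sst neurons, at 74.8 CPM. The 66 members just inside it, with 2 *Sst* UMIs, had *Lhx6* at 46.9 CPM and *Grin3a* at 162 CPM. The 184 members with 20 or more had *Lhx6* at 72.7 CPM and *Grin3a* at 422 CPM. In the 3 sets between, with 3 to 4, 5 to 9 and 10 to 19 UMIs, *Lhx6* was at 48.2, 91.4 and 53.5 CPM, so it had no steady order among members, and its intervals for 2 UMIs (21.5 to 89.1) and for 20 or more (53.4 to 96.7) overlap. *Grin3a* was at 141, 325 and 445 CPM in the same sets. *Npy*, the gene of neuropeptide Y, went from 169 CPM with 1 *Sst* UMI to 339 CPM with 2 and 4142 CPM with 20 or more. In the 3 sets between, *Npy* was at 269, 794 and 1059 CPM. Markers of other neurons were lower with many *Sst* UMIs. *Meis2*, a homeobox gene of striatal, olfactory bulb and other neurons, was at 790, 485 and 192 CPM with 1, 2 and 20 or more *Sst* UMIs, and *Adarb2*, a gene of interneurons from the caudal ganglionic eminence, at 288, 229 and 68.1 CPM. *Adarb2* was uneven between these ends, at 79.3, 57.1 and 118 CPM.

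**Figure D2:**
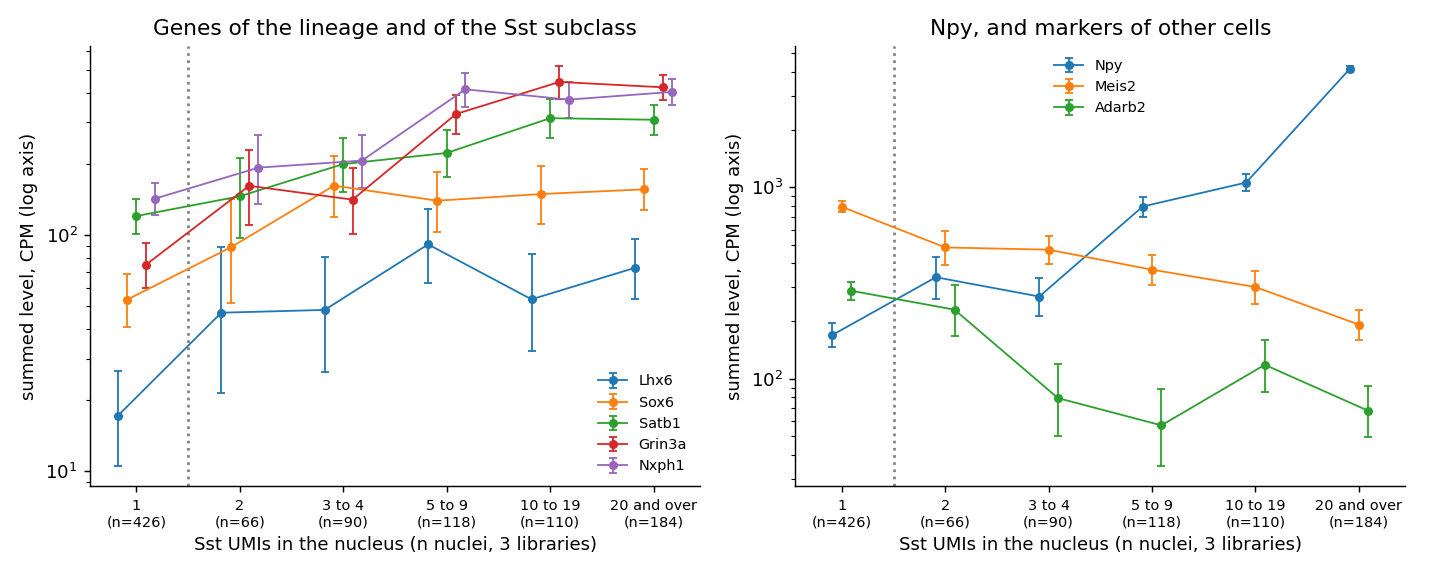
Summed level in CPM (log axes) of 5 lineage and subclass genes on the left, and of *Npy*, *Meis2* and *Adarb2* on the right, in nuclei grouped by their *Sst* UMIs over the 3 libraries, with exact Poisson 95% intervals. The dotted line marks the threshold, and the 426 nuclei left of it, with 1 UMI, are not members. *Grin3a* and *Npy* were higher and *Meis2* lower in members with more *Sst* UMIs.

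A minority of members carried many *Meis2* UMIs. There were 84 with 3 or more, 23 in C57BL/6J, 25 in the *Nav1* KO library and 36 in BTBR. Their *Sst* level was 2511 CPM against 7263 CPM in the other 484 members, and *Lhx6* was at 25 CPM against 78.9, *Grin3a* at 177 against 387 and *Adarb2* at 216 against 55.9 CPM. They were also deeper, with a median of 4308 UMIs against 2580. Whether they hold RNA of a second cell was not tested. Among the lists of other cell types, the astrocyte genes summed to 400, 319 and 330 CPM in the Sst nuclei of C57BL/6J, *Nav1* KO and BTBR, below the 595, 639 and 634 CPM of all other nuclei, and *Slc1a2* was the most abundant of the 6. The 10 excitatory genes summed to 538, 349 and 484 CPM against 1087, 1025 and 1022 CPM in all other nuclei, and *Camk2a* led them. These defining markers were not at 0 as a group. The 9 genes of striatal medium spiny neurons summed to 1058, 807 and 994 CPM against 1294, 1100 and 1137 CPM, led by *Pde10a*, and the 7 genes of the olfactory bulb to 302, 435 and 502 CPM against 448, 676 and 668 CPM, led by *Meis2*. *Cdhr1* and *Tbx21* of the bulb were at 0 in C57BL/6J, *Eomes* in *Nav1* KO and *Tbx21* in BTBR, as were the astrocyte genes *Gfap* and *Aldh1l1* in C57BL/6J. The 5 oligodendrocyte genes summed to 279, 292 and 322 CPM against 351, 291 and 311 CPM, and their 3 precursor genes to 13.8, 34.2 and 44.0 CPM against 24.5, 34.8 and 38.5 CPM. The 6 microglia genes summed to 50.0, 19 and 113 CPM against 37.1, 45.9 and 64.0 CPM, with *C1qb* and *C1qc* at 0 in *Nav1* KO. The 3 endothelial genes summed to 36.2, 15.2 and 8.25 CPM against 11.5, 22.5 and 16.3 CPM, with *Pecam1* at 0 in C57BL/6J. Sst nuclei were thus above the other nuclei in 1 or 2 libraries for each of these 4 lists. The part of RNA from these cells in the levels below was not tested.

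Sst and Vip nuclei were compared next, since Vip interneurons come from another embryonic source, the caudal ganglionic eminence. The counts of a class were summed in each library and tested across the 3 libraries with edgeR's quasi-likelihood test, with the library as a block and Benjamini-Hochberg adjustment over 3624 genes. Of these, 136 (3.75%) were higher and 173 (4.77%) lower in Sst nuclei at an adjusted p under 0.05, 309 (8.53%) in all. DESeq2 called 59 higher and 85 lower, and without the BTBR library edgeR called 85 and 113. All 136 were higher in 3 of 3 libraries, and 167 of the 173 were lower in 3 of 3. Vip nuclei numbered 51 in C57BL/6J (median 1826 UMIs), 52 in the *Nav1* KO library (2547.5 UMIs) and 91 in BTBR (1977 UMIs). The 7 genes of the rules were left out.

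Transcription factors and other genes of the medial ganglionic eminence were higher in Sst nuclei. Of 7 listed genes 5 could be tested, and 4 rose, among them *Satb1*, *Nxph1* and *Sox6*, with a median log2 difference of 2.25 for the 5 against -0.0021 over all genes tested. *Satb1*, a chromatin organizer needed for Sst neurons to mature, was at 248, 279 and 252 CPM in the Sst nuclei of C57BL/6J, *Nav1* KO and BTBR and at 16.9, 19 and 22 CPM in their Vip nuclei. The 3 libraries were alike and the classes did not overlap, with a log2 difference of 3.62 ± 0.34 (SE, n = 3 libraries, edgeR adjusted p = 2.0e-22). *Sox6*, which acts after *Lhx6*, was at 138, 142 and 154 CPM against 0, 19 and 29.3 CPM (log2 difference 2.83 ± 0.37, edgeR adjusted p = 1.0e-11). The factor *Maf* did not pass the test, at 219, 342 and 253 CPM against 312, 203 and 219 CPM. *Lhx6* was too low to enter the test.

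Genes known from the Sst subclass followed. Of 15 listed genes 13 could be tested, of which 10 were higher, *Kit* and *Synpr* were lower, and *Elfn1* did not pass, with a median log2 difference of 2.21. *Crhbp*, which binds corticotropin-releasing hormone, was at 308, 323 and 315 CPM in Sst nuclei and at 0, 6.33 and 14.6 CPM in Vip nuclei. It had the largest log2 difference of the genes named as higher, 5.02 ± 0.39 (SE, n = 3, edgeR adjusted p = 1.1e-31). *Grin3a* was at 290, 435 and 303 CPM against 16.9, 38.0 and 29.3 CPM. *Calb1*, a calcium-binding protein, was at 155, 169 and 121 CPM against 0, 6.33 and 7.32 CPM, and *Reln*, the extracellular protein reelin, at 240, 291 and 289 CPM against 84.3, 19 and 40.2 CPM. *Elfn1*, which shapes the synapses that Sst neurons receive, was at 141, 141 and 139 CPM against 110, 63.3 and 91.5 CPM (log2 difference 0.63 ± 0.26, edgeR adjusted p = 0.13). The other genes named as higher by the fixed rule were *Nos1*, *Rbp4*, *Smc2* and *Samd5*, with log2 differences between 2.64 and 3.90.

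Genes of the caudal ganglionic eminence were lower in Sst nuclei in 6 of the 6 that could be tested, with a median log2 difference of -4.62. *Adarb2* was at 77.6, 49.4 and 140 CPM in Sst nuclei and at 2394, 2191 and 2448 CPM in Vip nuclei (log2 difference -4.77 ± 0.18, n = 3, edgeR adjusted p = 2.5e-96). The serotonin receptor gene *Htr3a* had 1, 0 and 2 counts in Sst nuclei, which is 1.72, 0 and 2.75 CPM, against 67.4, 196 and 110 CPM. *Prox1*, a homeobox gene, was at 5.17, 5.70 and 4.13 CPM against 118, 127 and 102 CPM. *Cxcl14*, *Cnr1* and *Igf1* were the other 3. Also among the 10 named as lower were *Asic4*, an acid-sensing channel, *Cbln2*, a synapse organizer, and *Kit*, a receptor tyrosine kinase.

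**Figure D3:**
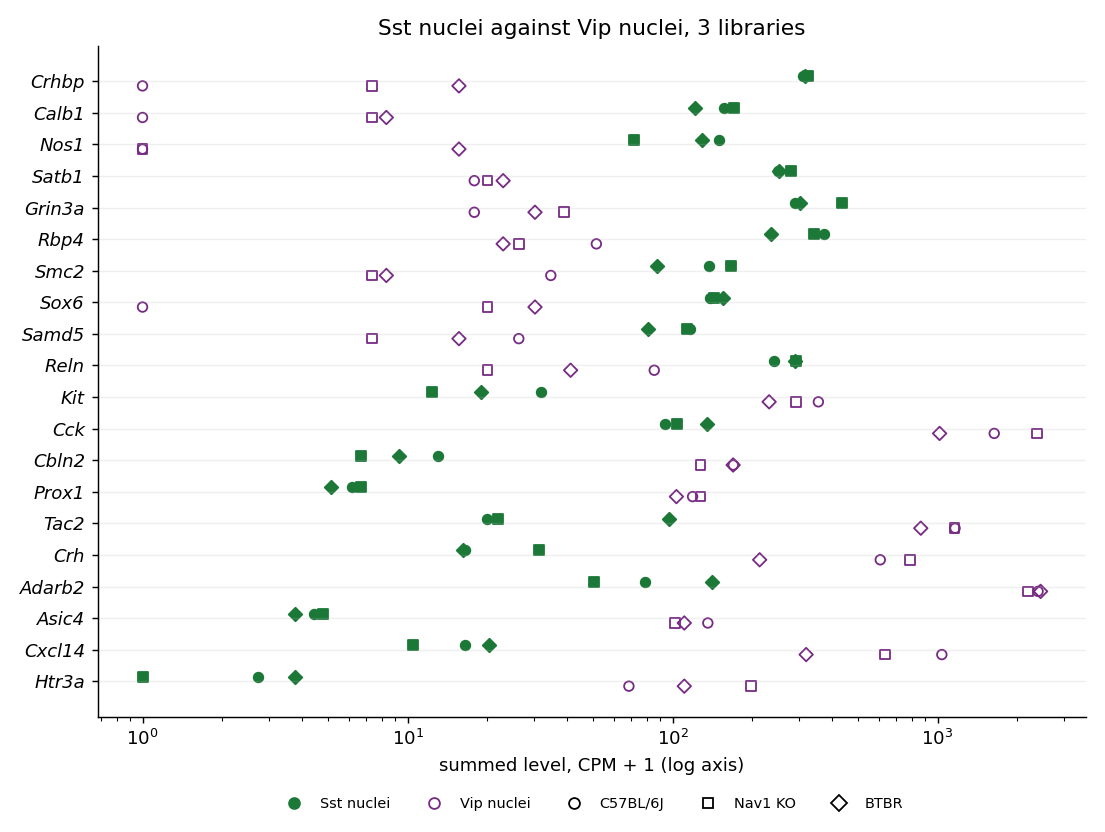
Summed level in CPM plus 1 (log axis) of the 20 genes named by the rule, in Sst nuclei (filled) and Vip nuclei (open), with 1 symbol shape per library. For each gene the 3 Sst values lie apart from the 3 Vip values, from *Crhbp* (log2 difference 5.02) at the top to *Htr3a* (-5.90) at the bottom.

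The neuropeptide genes divided the classes. Of 12 listed genes 8 could be tested. *Npy* and *Cort*, the gene of the somatostatin-like peptide cortistatin, were higher in Sst nuclei, *Tac2*, *Cck*, *Crh*, *Pnoc* and *Penk* were lower, and *Tac1* did not pass. *Npy* was at 2141, 1815 and 1756 CPM in Sst nuclei and at 1054, 374 and 113 CPM in Vip nuclei (log2 difference 2.21 ± 0.18, edgeR adjusted p = 7.8e-29), so its level in Vip nuclei differed more between the libraries than its level in Sst nuclei. The SE, which rests on a spread shared between genes, does not show this. *Crh* was at 15.5, 30.4 and 15.1 CPM against 607, 785 and 212 CPM. Among 12 peptide receptors only *Npy1r* was abundant enough to test, and it was lower in Sst nuclei, at 12.1, 20.9 and 26.1 CPM against 101, 114 and 117 CPM. The 12 receptors together summed to 107, 131 and 172 CPM in Sst nuclei and included *Sstr1* to *Sstr5*, the receptors of somatostatin.

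Glutamate receptor genes were higher in Sst nuclei in 8 of the 16 tested and lower in none, with a median log2 difference of 0.37. Among these were *Grin3a*, the kainate receptor genes *Grik1* and *Grik3*, the AMPA receptor genes *Gria1* and *Gria3*, the metabotropic gene *Grm5*, and *Grin2a*. *Gria1* was at 574, 604 and 459 CPM in Sst nuclei and at 202, 241 and 187 CPM in Vip nuclei (log2 difference 1.32 ± 0.19, edgeR adjusted p = 4.5e-10). *Grik1* was at 315, 201 and 268 CPM against 92.7, 31.7 and 73.2 CPM. *Gria2*, whose subunit keeps AMPA receptors closed to calcium, was at 3626, 2974 and 4070 CPM against 3516, 2527 and 4690 CPM and did not pass. Of 12 GABA receptor and scaffold genes 3 were lower, among them *Gphn* and *Gabrg3*, and 9 did not pass. Over all genes tested 3.75% were higher and 4.77% lower. *Gphn*, which encodes the scaffold protein gephyrin, was at 94.8, 64.6 and 94.9 CPM against 194, 120 and 143 CPM (log2 difference -0.85 ± 0.25, edgeR adjusted p = 0.0098).

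Of 19 potassium channel genes tested, 2 were higher (*Kcnq3* and *Kcnc2*), 4 were lower (*Kcnt2*, *Kcnn2*, *Kcnip4* and *Kcnc1*) and 13 did not pass. Over all genes tested 3.75% were higher and 4.77% lower, and nothing is read from the small counts of this paragraph. Of the 15 adhesion genes tested, *Nxph1*, *Cdh13* and *Cntnap5a* were higher and 4 were lower, among them *Cbln2*, *Ptprd* and *Nrxn3*. *Nxph1* encodes a secreted ligand of neurexins, and it was at 336, 370 and 338 CPM against 50.6, 127 and 95.1 CPM. Of 7 genes shared by interneurons, *Dlx6os1*, *Erbb4* and *Dlx1* were lower and 1 was higher. The 3 neuron navigator genes did not pass. Genes of other cells also moved with this comparison. The astrocyte genes *Slc1a2* and *Slc1a3* and *Rorb* of middle-layer excitatory neurons were lower in Sst nuclei, and *Cux2* of upper layers was higher. *Slc1a2* was at 308, 173 and 197 CPM in Sst nuclei and at 506, 633 and 439 CPM in Vip nuclei, and the part of these genes in the result was not tested.

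Pvalb nuclei, which share the origin of Sst nuclei in the medial ganglionic eminence, numbered only 5, 9 and 7 in C57BL/6J, *Nav1* KO and BTBR, with 14929, 31947 and 32511 counts. Of 3624 genes, 147 (4.06%) were higher and 54 (1.49%) lower in Sst nuclei by the same edgeR test, 201 (5.55%) in all, and 30 of the 147 had no count at all in Pvalb nuclei. None of the 5 genes of the shared lineage that were tested passed, which at this background and with so few Pvalb nuclei is not read as a likeness. *Sox6* was at 138, 142 and 154 CPM in Sst nuclei and at 335, 93.9 and 185 CPM in Pvalb nuclei. Genes of other cells moved here too, since the astrocyte gene *Slc1a3* was at 65.5, 91.2 and 89.4 CPM in Sst nuclei and at 0 counts in Pvalb nuclei (edgeR adjusted p = 0.016), and *Cnr1* of the caudal ganglionic eminence at 227, 215 and 265 CPM against 67.0, 31.3 and 0 CPM (edgeR adjusted p = 0.00034). Their part in the result was not tested. In the Sst subclass list 10 of 13 were higher. *Npy* was at 2141, 1815 and 1756 CPM against 134, 31.3 and 0 CPM (log2 difference 5.72 ± 0.44, n = 3, edgeR adjusted p = 3.9e-30), and *Crhbp* at 308, 323 and 315 CPM against 67.0, 31.3 and 0 CPM. The 10 highest genes by the naming rule were all at 0 counts in Pvalb nuclei, so only a lower bound can be given, set against 3 counts over the 3 libraries. *Unc13c*, a vesicle priming gene, was then at least 7.52-fold higher, *Elfn1* at least 3.71-fold and *Npas1* at least 3.16-fold. *Ctsl*, *Ndn*, *Rpl24*, *Pde1a*, *Pfn2* and *Arhgdig* had bounds between 2.28-fold and 4.07-fold.

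The genes lower in Sst than in Pvalb nuclei included potassium channels of fast-spiking neurons. *Kcnc1*, which carries the fast delayed rectifier current, was at 310, 351 and 285 CPM in Sst nuclei and at 1742, 1784 and 830 CPM in Pvalb nuclei (log2 difference -2.04 ± 0.22, n = 3, edgeR adjusted p = 1.1e-16). *Kcna1* and *Kcnma1* were lower too, and in all 4 of 19 channel genes tested were lower and none higher. Over all genes tested 1.49% were lower and 4.06% higher. Besides *Kcnc1*, the 10 genes named as lower were *Cemip*, *6330411D24Rik*, *F730043M19Rik*, *Btbd11*, *Tmem108*, *Kazn*, *Ahr*, *Hs3st1* and *Phlda1*, with log2 differences from -3.65 to -2.28. With 21 Pvalb nuclei in all, leaving out the *Nav1* KO library reduced the calls to 26 higher and 7 lower, leaving out C57BL/6J to 50 and 18, and leaving out BTBR to 87 and 49. DESeq2 called 31 higher and 35 lower.

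The members also differed among themselves in peptide content. *Npy* was found in 116 of 191 Sst nuclei of C57BL/6J, 103 of 155 of *Nav1* KO and 130 of 222 of BTBR. Its counts were concentrated, since the tenth of the nuclei richest in *Npy* held 58.4%, 62.9% and 68.4% of them. Across the nuclei of a library, *Sst* and *Npy* levels, each scaled to the total UMIs of the nucleus, rose together. The Spearman rho was 0.607 in C57BL/6J (191 nuclei), 0.515 in the *Nav1* KO library (155) and 0.491 in BTBR (222). This is a description of nuclei that were chosen by their *Sst* UMIs, share a library and differ in depth. Both levels are divided by the same total, and the part of this in the rho was not tested. Over the 3 libraries, the 93 nuclei with a *Cort* UMI had *Sst* at 11106 CPM, *Npy* at 3856 CPM and *Crhbp* at 692 CPM, and the 475 without had 5096, 1490 and 237 CPM. The *Sst* levels with and without *Cort* were 14686 and 5520 CPM in C57BL/6J, 10895 and 4931 CPM in the *Nav1* KO library and 5783 and 4907 CPM in BTBR. The Spearman rho of *Sst* and *Cort* levels, scaled in the same way, was 0.403, 0.222 and 0.053. *Crhbp* was likewise at 440 CPM in the 349 nuclei with *Npy* and at 82.6 CPM in the 219 without.

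Nuclei with at least 1 UMI of both *Nos1*, the neuronal nitric oxide synthase, and *Chodl*, a membrane lectin, were 5 of 191 (2.62%, 0.855 to 6.00) in C57BL/6J, 2 of 155 (1.29%, 0.157 to 4.58) in *Nav1* KO and 12 of 222 (5.41%, 2.82 to 9.25) in BTBR. These intervals overlap. The median depth of these nuclei was 1848, 2807 and 4050.5 UMIs in the same order. Thinned to 500 UMIs the shares were 0%, 0% and 2.70%, and at 1000 UMIs they were 1.63%, 0.654% and 1.83%. With *Chodl* or at least 2 *Nos1* UMIs they were 9.95%, 5.16% and 9.01%, so the order of C57BL/6J and BTBR rests on the rule. No excitatory nucleus had a UMI of both, which allows shares of nuclei with such UMIs of up to 0.115%, 0.0805% and 0.0842% in the same order and does not limit the nuclei that express both genes. The 19 nuclei together had *Npy* at 12327 CPM against 1504 CPM in the other 549 members and *Crhbp* at 1403 against 274 CPM. *Tacr1*, the substance P receptor known from this type, was at 241 against 13.0 CPM. *Reln* stood lower, at 45.3 against 282 CPM, and *Elfn1* was at 45.3 against 144 CPM. Each rests on 3 counts in the 19 nuclei, all of them in BTBR, and the *Elfn1* intervals overlap (9.33 to 132 and 127 to 162 CPM). BTBR gave 48384 of the 66278 counts of these nuclei. Because *Nos1* and *Chodl* chose these nuclei, their own levels are not a result.

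Several markers of other Sst types were rare. *Myh8* had 1, 0 and 1 counts and *Chrna2* 1, 1 and 3 counts in the Sst nuclei of C57BL/6J, *Nav1* KO and BTBR, both being known from types of deep layers. *Hpse*, of a layer 4 type, had 6, 8 and 8 counts, *Calb2* 6, 14 and 13 counts and *Crh* 9, 16 and 11 counts. *Pdyn*, the prodynorphin gene, was more frequent, at 51.7, 85.5 and 59.1 CPM, and was at 0 counts in the Vip nuclei of C57BL/6J and *Nav1* KO. *Tac1* had a UMI in 95 of 568 members, at 138, 62.7 and 111 CPM. At these counts, types could not be separated nucleus by nucleus.

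The levels of the 3 genotypes were then set side by side within the Sst nuclei. With 1 library each there was no test, and a gene was counted when its ratio to C57BL/6J passed 2-fold with 5 CPM added to both, among genes with at least 50 CPM in 1 of the libraries. Both ratios share the C57BL/6J library. A gene that reaches 50 CPM in 1 library alone enters through the library where it is high, so the ratio of such a gene is a description of its levels and nothing is read from its passing 2-fold. In *Nav1* KO, 39 of 4238 genes (0.920%) were higher and 87 (2.05%) lower, 126 (2.97%) in all. In BTBR, 76 of 4400 (1.73%) were higher and 63 (1.43%) lower, 139 (3.16%) in all. The median log2 ratio over all genes was -0.10 in *Nav1* KO and 0.0054 in BTBR, and dividing by it changed the *Nav1* KO counts to 67 higher and 52 lower, so the balance of directions in that library rests on the scaling.

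Genes of the lineage and subclass were set side by side first. None of the 6 genes of the medial ganglionic eminence that entered the ratios passed 2-fold in *Nav1* KO or in BTBR, and of 12 Sst subclass genes only *Cort* did, in BTBR. *Satb1*, *Sox6*, *Crhbp* and *Elfn1* had overlapping intervals in the 3 libraries. *Grin3a* was at 290 CPM in C57BL/6J, 435 in the *Nav1* KO library and 303 in BTBR, a *Nav1* KO ratio of 1.5 (1.23 to 1.84), while over all other nuclei of the same libraries it was at 31.7 CPM in C57BL/6J and 25.2 in *Nav1* KO. None of the 16 glutamate receptor, 12 GABA receptor, 15 adhesion or 15 potassium channel genes in the *Nav1* KO ratio passed 2-fold. The same held in BTBR for 16, 12, 14 and 17 genes. Few genes of any kind passed, so these counts lie near the background and nothing is read from them.

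*Cort* was at 193 CPM in C57BL/6J (112 counts in 41 nuclei), 207 CPM in *Nav1* KO (109 counts in 30 nuclei) and 64.6 CPM in BTBR (47 counts in 22 nuclei). The BTBR ratio was 0.335 (0.233 to 0.475), and the interval of BTBR lay below those of the other libraries. The peptide and binding protein genes found with it differed less, since *Npy* had a BTBR ratio of 0.820 (0.758 to 0.888) and *Crhbp* was at 308, 323 and 315 CPM. *Tac2*, the neurokinin B gene, was at 19, 20.9 and 96.3 CPM, with 70 counts in 23 nuclei of BTBR against 11 counts in 5 nuclei of C57BL/6J and a ratio of 5.08 (2.67 to 10.6), and it reached 50 CPM in BTBR alone. It is one of the genes that mark Vip nuclei here, and another, *Adarb2*, was at 77.6, 49.4 and 140 CPM in the same Sst nuclei. The part of RNA from other interneurons in this difference was not tested. *Npas1*, a transcription factor of interneurons, was at 68.9, 103 and 172 CPM, a BTBR ratio of 2.49 (1.73 to 3.66), and it was also higher in the Vip nuclei of BTBR, at 75.9, 88.7 and 201 CPM.

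Immediate-early genes, which neurons switch on with activity, stood higher in BTBR. *Junb* was at 34.5, 36.1 and 121 CPM and *Npas4* at 10.3, 19 and 56.4 CPM in C57BL/6J, *Nav1* KO and BTBR. Both were above 50 CPM in BTBR alone. The 8 genes summed to 140, 141 and 388 CPM in Sst nuclei and to 241, 256 and 472 CPM in all other nuclei, so BTBR stood highest in both sets. In *Nav1* KO, *Nos1* was at 70.3 CPM against 148 in C57BL/6J and *Tac1*, the substance P gene, at 62.7 against 138 CPM. Their ratios were 0.474 (0.313 to 0.705) and 0.455 (0.293 to 0.690). Excitatory and striatal markers were lower in the same ratio, with *Rorb* at 38.0 against 86.2 CPM. The median log2 ratio was -0.51 for 4 excitatory genes and -0.58 for 3 striatal genes, against -0.10 over all genes. Olfactory bulb genes went the other way, with a median log2 ratio of 0.61 for 2 genes and *Meis2* at 338 against 250 CPM. The part of these markers in the result was not tested. *Nos1* rested on 16 and 25 nuclei, and without the richest nucleus of each library its log2 ratio went from -1.03 to -1.45.

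**Figure D4:**
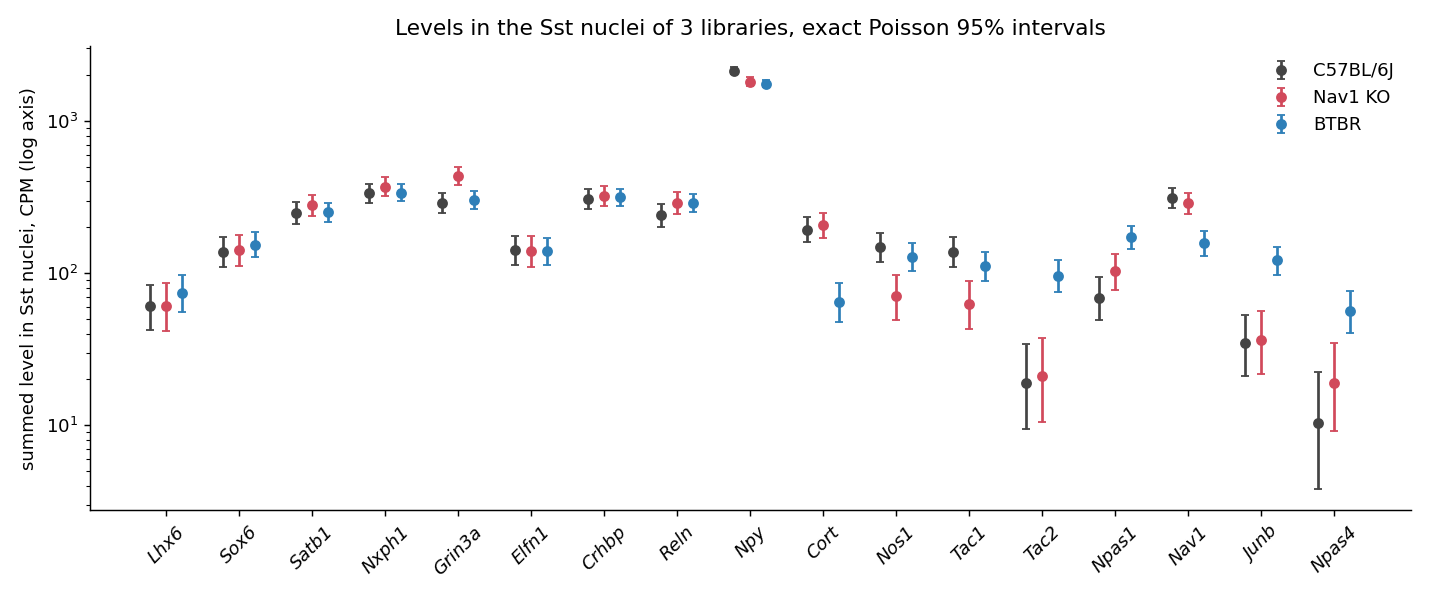
Summed level in CPM (log axis) of 17 genes in the Sst nuclei of C57BL/6J, *Nav1* KO and BTBR, with exact Poisson 95% intervals. Lineage and subclass genes from *Lhx6* to *Reln* lie close together, apart from *Grin3a*, at 435 CPM in *Nav1* KO against 290 in C57BL/6J. *Cort* (64.6 CPM) and *Nav1* (157 CPM) are lower, and *Tac2*, *Npas1*, *Junb* and *Npas4* higher, in BTBR, where alone *Tac2*, *Junb* and *Npas4* reached 50 CPM.

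*Nav1* itself was at 312 CPM in the Sst nuclei of C57BL/6J (268 to 361), 289 CPM in *Nav1* KO (245 to 338) and 157 CPM in BTBR (129 to 188). The *Nav1* KO ratio was 0.925 (0.741 to 1.15) and the BTBR ratio 0.503 (0.394 to 0.639). In excitatory nuclei it was at 345, 289 and 148 CPM in the same order. Counts from the 3′ end of a transcript do not cover the stretch removed from the first exon, so the level in the *Nav1* KO library checks nothing about its label. *Nav2* and *Nav3* were at 400, 399 and 375 CPM and at 421, 349 and 402 CPM. *Xist*, which is made by female cells, had no count in the Sst nuclei of any library.

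The genes with the highest and lowest ratios were taken among those with at least 100 CPM in 1 library, and their ratios over all other nuclei, which come from the same libraries, are set beside them. In BTBR, *Lsm4*, an RNA-binding protein of splicing and decay, was at 187 CPM against 6.89 in C57BL/6J, with 136 counts against 4, and *Sav1*, an adaptor of the Hippo pathway, at 173 against 19 CPM, so both entered through BTBR alone. *Scg5*, a chaperone of prohormone processing, was at 1008 against 357 CPM, a ratio of 2.83 (2.42 to 3.31). *Galnt1*, an enzyme of O-linked glycosylation, was at 28.9 against 178 CPM and the transcript *Gm17167* at 1.38 against 129 CPM, with 1 count against 75. The log2 ratios of *Lsm4*, *Sav1*, *Scg5*, *Galnt1* and *Gm17167* over all other nuclei were 3.63, 2.86, 1.52, -3.26 and -5.46. The other named genes were *Pbx3*, *Ecsit*, *6330411D24Rik*, *Mrpl41* and *Anks1* among the higher and *mt-Nd3*, *Ttc8*, *Gabarapl2*, *D830024N08Rik*, *Hjurp*, *AY036118* and *AC149090.1* among the lower.

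In *Nav1* KO the ratios were smaller. *Apod*, a lipid carrier of glia and fibroblasts, was at 122 CPM against 17.2 in C57BL/6J, with 64 counts in 26 nuclei against 10 in 9, and *Ptgds*, prostaglandin D synthase, at 482 against 171 CPM with 254 counts in 66 nuclei against 99 in 46. *Apod* entered through the *Nav1* KO library alone. Both are genes of non-neuronal cells, and over all other nuclei their log2 ratios were 1.72 and 1.90. The part of free RNA in their level was not tested. *Sbf1*, *Ecsit*, *Syt5* and *Letm2* were between 2.00-fold and 2.30-fold higher with 5 CPM added, while *1500011B03Rik*, *Mrpl41* and *Gm4258*, next in order, did not pass 2-fold. *Unc13c* was at 387 against 178 CPM, and over all other nuclei its log2 ratio was -0.61. Among the lower, the ribosomal RNA derived transcript *AY036118* was at 1069 against 2814 CPM and *Rgs9*, a regulator of G protein signaling in striatal neurons, at 45.6 against 122 CPM. The synaptic adhesion gene *Lrrc4c* was at 47.5 against 128 CPM, and *Tafa1*, *Actn1*, *Arhgap33*, *Sgcz*, *Gtf3c2*, *Sec14l1* and *Gm26917* were the others named. Over all other nuclei the log2 ratios of *AY036118*, *Rgs9* and *Gm26917* were -1.19, -1.06 and -1.28, and those of *Lrrc4c*, *Tafa1*, *Actn1*, *Arhgap33*, *Sgcz*, *Gtf3c2* and *Sec14l1* lay between -0.61 and -0.09.

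**Figure D5:**
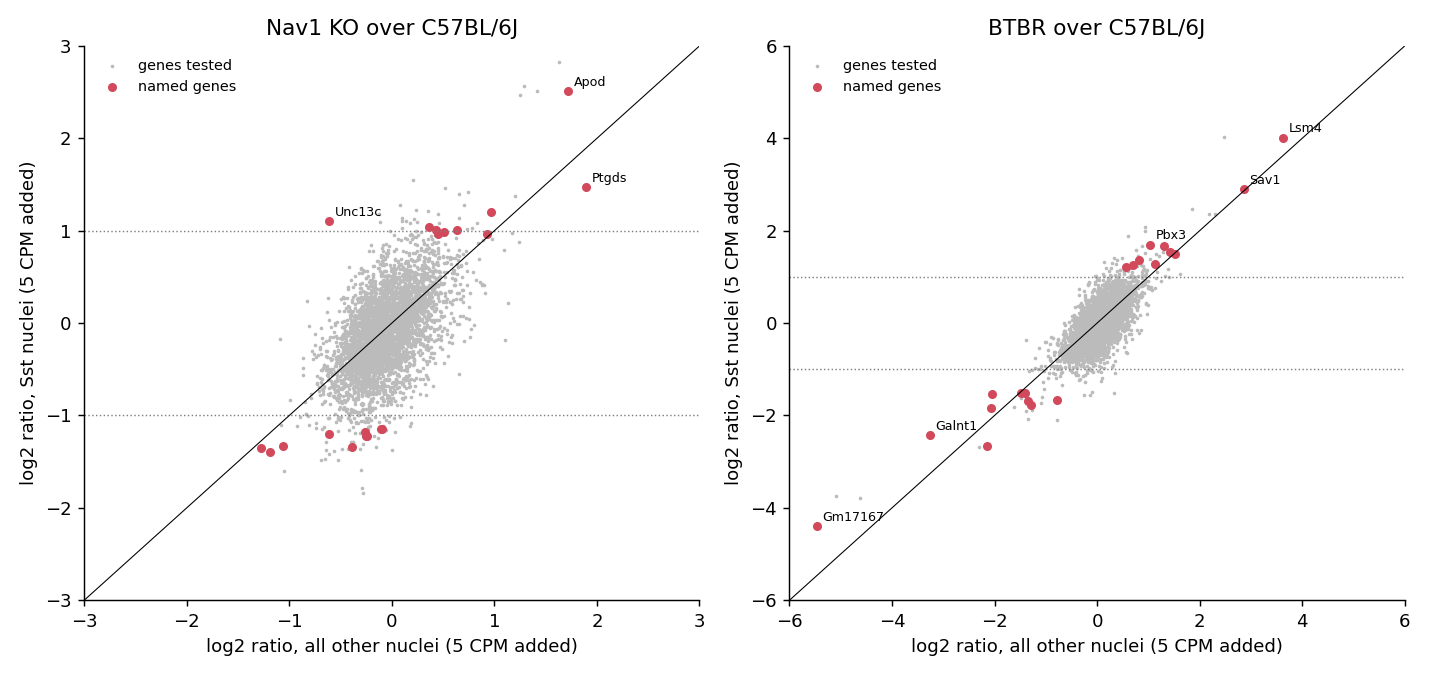
Log2 ratio to C57BL/6J with 5 CPM added, in Sst nuclei (vertical axis) and in all other nuclei of the same libraries (horizontal axis), for *Nav1* KO (4238 genes) on the left and BTBR (4400 genes) on the right, with the named genes in red and dotted lines at 2-fold. *Lsm4* and *Gm17167* lie far out near the diagonal in BTBR, and *Unc13c* lies off it in *Nav1* KO, at 1.10 in Sst nuclei and -0.61 in the others.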

How the data were processed

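For each of the 3 libraries the authors deposited a filtered matrix of raw counts (UMIs per gene and nucleus), made with Cell Ranger 6.0.0 and the mm10 reference per the labels. The filter on genes and mitochondrial counts kept 14630 of 15402 barcodes in C57BL/6J, 14056 of 14623 in *Nav1* KO and 14778 of 15238 in BTBR. The cell counts in the GEO design text equal the filtered numbers for C57BL/6J and *Nav1* KO and the unfiltered number for BTBR. Kept nuclei held 38704723, 50965774 and 48948184 counts.

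Counts were summed over the nuclei of a class and library. Levels are CPM with exact Poisson intervals, shares have Clopper-Pearson intervals and ratios have intervals from the binomial split, all at 95%. Classes were tested with edgeR 4.0.16 in R 4.3.3 in 1 fit of 9 sums (3 classes, 3 libraries) with a library block and Benjamini-Hochberg adjustment over 3624 genes, and DESeq2 1.42.0 was an alternative. Labels give 1 library per genotype. The p-values rest on a spread fitted over the 9 sums and moderated across genes. The SE is worked back from the log2 difference and the F value of the test. Neither is the spread of a single gene's class difference between the libraries, which the levels of each library show. The test was first tested on simulated counts with known changes. It recovered 171 of 177 changed genes against Vip nuclei and 108 of 177 against Pvalb nuclei, so it misses more against Pvalb nuclei. Doublet scores came from Scrublet (scanpy 1.11.5), whose threshold called 1, 1 and 0 nuclei and was not used, and an alternative left out the 10% highest scores.

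The genes named are those of 23 lists, the 10 highest and 10 lowest of each class comparison (adjusted p under 0.05, same direction in 3 libraries, at least 50 CPM in the higher class), and the 10 highest and 10 lowest ratios of each library at 100 CPM or more. Some genes that these rules name are counted but not reported here by name. The Sst rule, the lists and these rules were chosen with earlier results of these data known, and the rule uses *Sst* counts of the same nuclei. Python 3.11.15 with numpy 2.4.6, scipy 1.17.1, pandas 2.3.3 and matplotlib 3.10.9 was used.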

Additional observations from a re-analysis of the deposited data

Results flagged for a closer look

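*Unc13c*, which encodes a vesicle priming protein of the Munc13 family, was flagged because its *Nav1* KO ratio pointed one way in Sst nuclei and the other way outside them. In Sst nuclei *Unc13c* was at 178 CPM in C57BL/6J (103 counts in 53 of 191 nuclei) and 387 CPM in *Nav1* KO (204 counts in 71 of 155 nuclei), a log2 ratio of 1.10 with 5 CPM added. Over all other nuclei *Unc13c* had 75.4 CPM in C57BL/6J against 47.7 in the *Nav1* KO library, a log2 ratio of -0.61, and in excitatory and Vip nuclei the log2 ratios were -0.41 and -1.30. Without the richest nucleus of each library the Sst log2 ratio was 1.12. The difference between the cell classes was not tested, since each genotype has 1 library. In BTBR Sst nuclei *Unc13c* was at 294 CPM.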

How the results depend on the processing

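None of the 10 highest and 10 lowest genes of each comparison changed direction under the alternatives that gave a value. The direction of the other called genes was not followed. The order of C57BL/6J and BTBR changed in 2 shares, and the balance of directions in *Nav1* KO with the scaling, as given below. Of 808 alternative values of single genes, 733 stayed on their side of the threshold, 57 no longer passed it, 8 newly passed it and 10 with no test moved. Of 109 for the main counts and shares, 65 stayed within range and 44 moved. Against Vip nuclei, DESeq2 called 59 genes higher and 85 lower, and without the library block 113 were lower. Leaving out 1 library each gave 85 to 109 higher and 113 to 132 lower, with the lowest values without BTBR. Against Pvalb nuclei, DESeq2 called 31 higher and 35 lower, no filter beyond 1 count gave 283 and 14, no library block gave 69 and 33, and only the 2 classes compared gave 33 lower. Leaving out 1 library each gave 26 to 87 higher (50 without C57BL/6J, 26 without *Nav1* KO and 87 without BTBR) and 7 to 49 lower. A threshold of 3 *Pvalb* UMIs gave no value, since 1 library alone kept Pvalb nuclei.

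For the library ratios, 20 CPM added gave 13 higher and 21 lower in *Nav1* KO and 31 and 30 in BTBR, a minimum of 100 CPM gave 7 and 20, and 24 and 19, and no minimum beyond 20 counts gave 113 and 217, and 224 and 152. Nuclei thinned to 1000 UMIs, which leaves fewer counts per gene, gave 265 and 416, and 351 and 255. Dividing by the median ratio gave 67 and 52 in *Nav1* KO. With no *Slc17a7* UMI allowed, 136 were lower in *Nav1* KO and 109 in BTBR. The cause of the other changes was not tested. The BTBR share ratio among GABA nuclei was 0.873. The share of *Nos1* and *Chodl* nuclei was 0% in C57BL/6J, 0% in the *Nav1* KO library and 2.70% in BTBR at 500 UMIs, and 1.83% in BTBR at 1000 UMIs, an alternative chosen after seeing the data. With *Chodl* or at least 2 *Nos1* UMIs it was 9.95% in C57BL/6J, 5.16% in the *Nav1* KO library and 9.01% in BTBR. No paired analysis was possible because each genotype has 1 library, so the block is the library itself. Depth limits what can be said of sparse genes such as *Lhx6* and of rare types.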
